A study of Drosophila melanogaster with 6 samples.

Results

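The genes described are the alpha-glucosidase (maltase) genes Mal-B1 (CG14934) and Mal-B2 (CG14935), the alpha-glucosidase gene tobi (CG11909) and the glycogen branching enzyme gene AGBE (CG33138). They were the probe sets of these genes in the table of 260 probe sets in which the authors listed their own comparison, matched by CG number or by the symbol that RefSeq's Release 6 annotation of the fly gives. Each gene had 1 probe set there, so 4 of 18769 probe sets are described. CG11669, which had been put down as tobi, is Mal-A7 in that annotation; it is not among the 260 probe sets and was not analysed here, and tobi entered by its symbol. Listing in that table was itself decided by the values of these arrays, so differences of its genes between the groups are no independent evidence.

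Total RNA of whole adult flies, aged 7 days on standard food, was hybridised to 6 Affymetrix arrays. The groups are 3 arrays of Canton S, a wild-type strain that the design text calls a genetically matched control, and 3 labelled DHR96 mutant. DHR96 is an older name of the nuclear receptor gene Hr96. The labels name no allele, sex or pooling of animals, and do not say whether the arrays of a group came from separate collections, so p-values cover the spread among these arrays and that spread may be technical. The Hr96 probe set itself was at 527, 498 and 546 in Canton S and at 977, 985 and 928 on the arrays labelled DHR96 mutant, which goes against the fall that a loss of transcript would give. The position of that probe set relative to the mutation is not given, so it does not check the labels, and every direction below rests on them. The authors' intensities, already normalized, had array medians between 474 and 488.1. The poly-A spike-in controls, RNAs added to a sample before labelling, set 2 arrays apart: the Dap 3' control read 473 and 519 on DHR96 mutant replicates 2 and 3, 1217 on replicate 1, and 1007 to 1208 on the Canton S arrays.

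Maltases are alpha-glucosidases that split maltose and related sugars into glucose in the last step of starch digestion, and flies carry a family of them in clusters. The gene name tobi stands for target of brain insulin, because its transcript responds to the insulin-producing cells of the brain, to the hormone AKH and to dietary protein and sugar. Glycogen, the storage polymer of glucose, is built by glycogen synthase, which extends chains, and by the branching enzyme, which adds the branch points. Hr96 is known for its part in the handling of dietary fat, sterols and foreign chemicals.

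The 2 neighbouring maltase genes moved in opposite directions, while tobi and AGBE rose. In the arrays labelled DHR96 mutant, Mal-B1, tobi and AGBE were 1.474-fold, 1.393-fold and 1.341-fold higher and Mal-B2 was 1.559-fold lower, on the scale of log2(intensity + 16). All 4 passed limma's adjusted p of 0.05, 3 higher and 1 lower. Over all 18769 probe sets 6.96% passed, 3.29% higher and 3.67% lower; higher calls were 47.2% of the calls, and 57.6% after quantile normalization. Of the authors' 260 listed probe sets 93.5% passed, so the count of 4 says nothing beyond their listing. Within that list, Mal-B2, Mal-B1, tobi and AGBE ranked 95, 122, 169 and 209 of 260 by size. The median absolute log2 difference was 0.54 in the list and 0.067 over all probe sets. Mal-B2 and Mal-B1 lay above the median of the list, and tobi and AGBE below it.

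**Figure D1:**
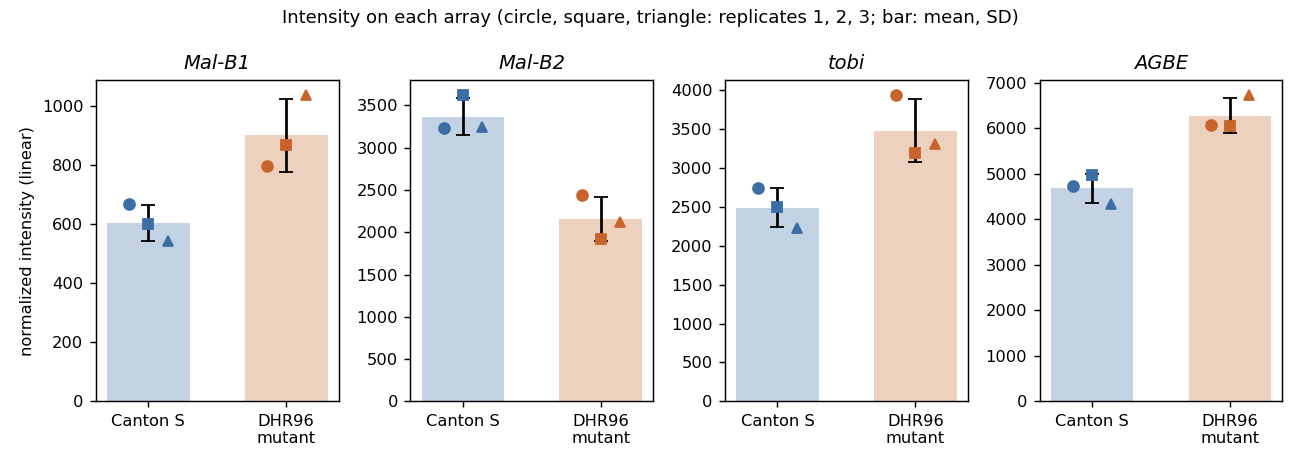
Normalized intensity (linear axis from 0) of the 4 genes on each array, with bars at the mean of the 3 arrays of a group and error bars of 1 SD. In each panel the points of the arrays labelled DHR96 mutant lie clear of the Canton S points, below them for Mal-B2 and above them for Mal-B1, tobi and AGBE.

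Mal-B1, a maltase gene on chromosome arm 2L, read 666, 602 and 544 on Canton S replicates 1, 2 and 3. On the replicates labelled DHR96 mutant it read 797, 868 and 1037. Every array labelled mutant was above every Canton S array, and mutant replicate 3 stood highest. The means were 604 ± 61.2 and 900.3 ± 123 (SD, n = 3 each), a log2 difference of 0.56 (SE 0.105, 95% interval 0.31 to 0.80, limma adjusted p = 0.0254). Of the 4 genes it had the dimmest probe set, brighter on average than 64.6% of all probe sets. The authors' deposited table gives a fold of 1.49 and a q-value of 0.649%. With Canton S replicate 1, 2 or 3 or mutant replicate 2 or 3 left out, the log2 difference was 0.63, 0.56, 0.49, 0.58 or 0.46 and the limma adjusted p 0.0564, 0.0650, 0.0703, 0.0544 or 0.0534. Against the Canton S arrays, mutant replicate 1 alone, the array with like spike-in controls, differed by 0.395 (limma adjusted p = 0.390 with the spike-in split as a block).

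Mal-B2, the maltase gene next to Mal-B1 in gene order, read 3231, 3622 and 3246 on the arrays of Canton S. On the arrays labelled DHR96 mutant it read 2438, 1922 and 2121, each below the lowest Canton S value. The means were 3366 ± 221 and 2160.4 ± 260.4 (SD, n = 3 each), and the transcript fell by 0.64 on the log2 scale (SE 0.0858, 95% interval -0.84 to -0.44, limma adjusted p = 0.00919). This was the largest change and the smallest p of the 4 genes. Its probe set name ends in a_at, the manufacturer's mark for probes shared by several transcripts of 1 gene, so its value does not separate the transcripts of Mal-B2. The authors' deposited table gives -1.56 as its fold and a q-value of 0.390%. With each array left out in turn it passed every time, at limma adjusted p-values of 0.00717 to 0.0390. Mutant replicate 1 alone differed by -0.46, the smallest fall of the 3 arrays labelled mutant, and did not pass with the spike-in split as a block (limma adjusted p = 0.160).

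The opposite changes of these neighbours were set against each other within arrays. The change of Mal-B1 minus that of Mal-B2 was 1.20 on the log2 scale, and its 9 differences between an array labelled mutant and a Canton S array ran from 0.66 to 1.54. The change of Mal-B2 minus that of tobi was -1.12, and minus that of AGBE -1.06. These values are a description: each gene already separated the groups, in opposite directions, so the order of the arrays was fixed. Beyond Mal-B1 and Mal-B2 themselves, none of the 2 genes to each side of any of the 4 genes is in the authors' table, which holds 1.39% of all probe sets, so few neighbours could be there and nothing is read from their absence.

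The alpha-glucosidase gene tobi, on arm 3R, had intensities of 2736, 2498 and 2230 in Canton S and of 3933, 3185 and 3305 in the replicates labelled DHR96 mutant. The groups did not overlap, and here mutant replicate 1 was the highest array, where it was the lowest for Mal-B1. The means were 2488 ± 253 and 3474 ± 402 (SD, n = 3 each), a log2 difference of 0.48 (SE 0.0952, 95% interval 0.26 to 0.70, limma adjusted p = 0.0302). The authors' deposited table gives a fold of 1.40 and a q-value of 1.39%, the highest q of the 4. Without Canton S replicate 1, 2 or 3 or mutant replicate 1 or 3, the log2 difference was 0.55, 0.48, 0.40, 0.39 or 0.51 and the limma adjusted p 0.0571, 0.0712, 0.0747, 0.0700 or 0.0661. Mutant replicate 1 alone differed by 0.66 (limma adjusted p = 0.102 with the spike-in split as a block), a larger value than with all arrays.

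AGBE, on arm 2R, encodes the enzyme that adds branches to growing glycogen chains. Its intensities were 4737, 4972 and 4343 in Canton S and 6065, 6050.5 and 6732 in the replicates labelled DHR96 mutant. Its groups did not overlap either, and mutant replicates 1 and 2 were almost level. The means were 4684 ± 318 and 6283 ± 390 (SD, n = 3 each), a log2 difference of 0.42 (SE 0.0606, 95% interval 0.28 to 0.56, limma adjusted p = 0.0112). The change was the smallest of the 4 but had the smallest standard error, in a probe set brighter than 95.9% of all. The authors' deposited table gives a fold of 1.34, near the smallest that it lists, 1.301, and a q-value of 0.649%. Leaving out Canton S replicate 1 gave a log2 difference of 0.43 at a limma adjusted p of 0.0512, and AGBE passed without any other single array. Mutant replicate 1 alone differed by 0.37 (limma adjusted p = 0.249 with the spike-in split as a block).

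The rises of Mal-B1, tobi and AGBE could not be ordered by size. Their changes differed from each other by 0.055 to 0.137 on the log2 scale, with two-sided exact permutation p-values of 0.2 to 0.7 before adjustment over the 6 pairs of the 4 genes; the smallest p that this test can give with 3 and 3 arrays is 0.1. The array-wise differences ran from -0.10 to 0.33 for Mal-B1 against AGBE, from -0.28 to 0.37 for Mal-B1 against tobi, and from -0.23 to 0.37 for tobi against AGBE, so each range includes 0. All 4 genes belong to the 30.9% of probe sets whose values did not overlap between the groups. Their listing by the authors already rested on a difference on these arrays, so this adds nothing to it.

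**Figure D2:**
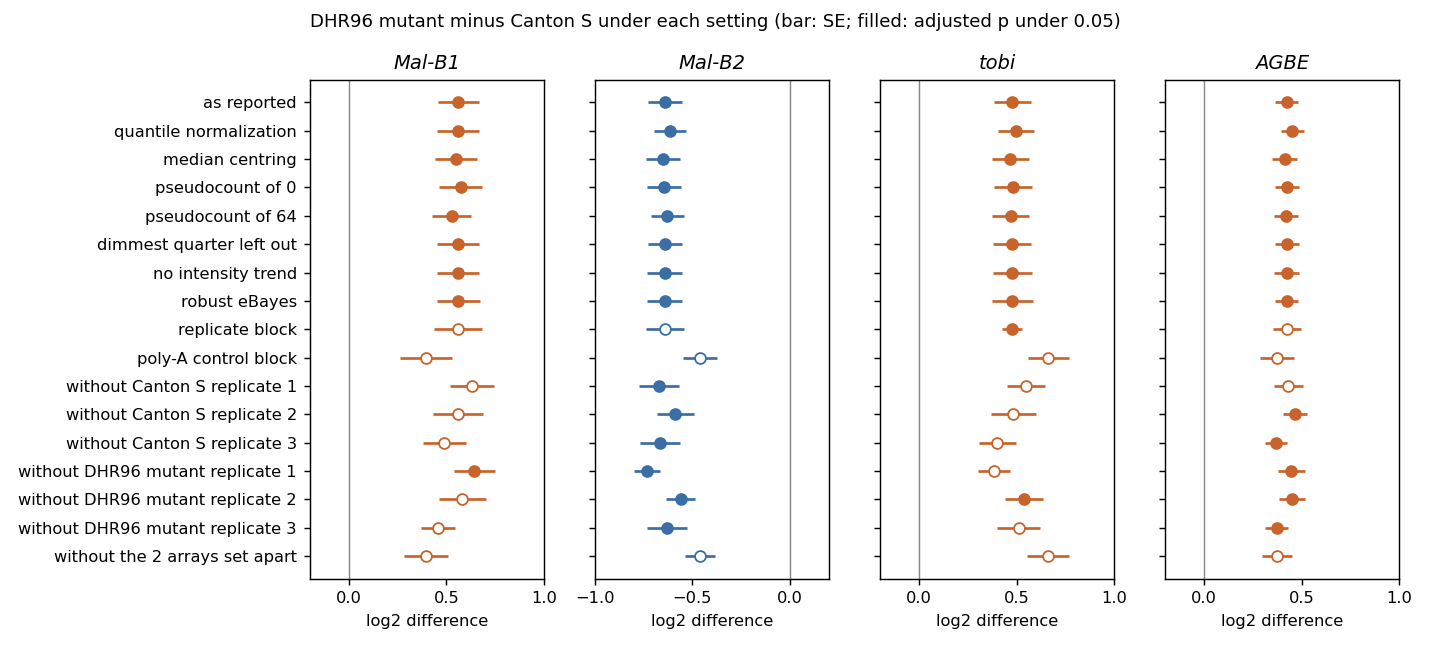
Log2 difference, DHR96 mutant minus Canton S, with its standard error, for each gene with all arrays (top) and under 16 alternatives; filled points have a limma adjusted p under 0.05. All points keep their side of 0, and the open points show where a call was lost, as for all 4 genes with the poly-A control block.

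Fat body and midgut genes of the authors' table were also read. Listing there already rested on a difference between the groups on these arrays, so their differing is no separate result. Of 10 fat body genes listed, 6 are in the authors' table: 5 passed as higher, 0 as lower and 1 did not pass, in a table of which 93.5% passed. Those that passed are Lsp2, Fbp1, Fbp2, Obp99b and Lsp1gamma. Lsp1beta was higher too, by 0.62 on the log2 scale, but did not pass (limma adjusted p = 0.0514). The Lsp genes are named for larval serum proteins. How well these 6 genes mark the fat body of adults was not tested. With the spike-in split as a block 0 of the 6 passed limma, with 5 at an unadjusted p under 0.05, and 3 passed without both arrays set apart; without Canton S replicate 1, 2 or 3, 2, 3 or 2 passed. Their summed intensity was 6481 to 8311 on the Canton S arrays and 13244 to 18631 on the arrays labelled DHR96 mutant, where replicates 1, 2 and 3 had the same order as for Mal-B1. Of 30 midgut genes listed, 8 are in the table: 2 rose, Npc1b and Ser8, and 6 fell. All 8 passed limma, as did 93.5% of the table's probe sets, of which 69.2% are listed as higher. With the spike-in split as a block 4 of the 8 passed, 1 higher and 3 lower, and without mutant replicate 1 alone 5 did. Their summed intensity was 32499 to 34702 in Canton S and 17246 to 21246 in the arrays labelled mutant. Both sums hold only genes that the table lists, so they differ by selection and do not measure the tissues. The midgut sum follows its brightest genes, such as Jon99Ci and Jon99Fi. It hides the rises of Npc1b, from a mean of 426 to 1094, and Ser8, from 517 to 856. None of these 8 midgut genes is among the maltases and amylases listed, and the lipase gene mag has a role in the handling of fat. Besides mag, those that fell are iotaTry, Jon99Ci, Jon99Fi, Jon65Ai and Jon65Aii, genes of the trypsin and Jonah protease types. None of these markers read near 0, the lowest being 570.2 for the fat body and 406 for the midgut genes. In RNA of whole animals, fewer cells of a type and less RNA per cell cannot be told apart, and the part of either marker list in the changes of the 4 genes was not tested.

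**Figure D3:**
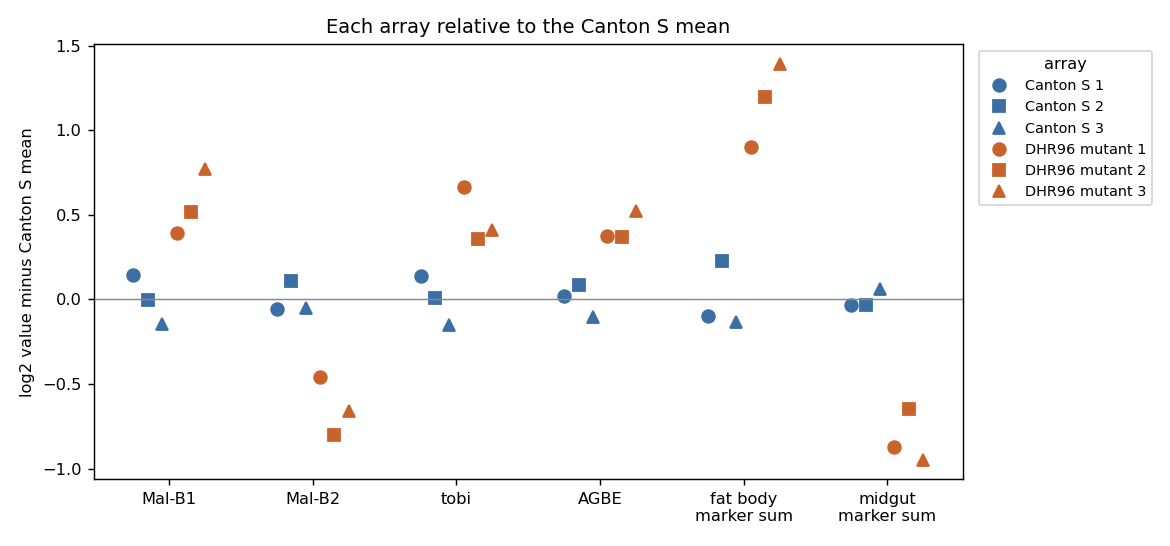
Log2 value of each array minus the mean of the Canton S arrays, for the 4 genes on log2(intensity + 16) and for the log2 summed intensity of the 6 fat body and 8 midgut markers in the authors' table. Those markers were listed for differing on these arrays, so the sums differ by selection. Mal-B1, tobi, AGBE and the fat body sum are higher and Mal-B2 and the midgut sum lower on all 3 arrays labelled DHR96 mutant; replicate 1, drawn as a circle, is the highest of the 3 for tobi and the lowest for Mal-B1.

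Few other genes of sugar metabolism are in the authors' table, which holds 1.39% of all probe sets, so nothing is read from the absence of the rest. Of 14 maltase and amylase genes listed, 3 are in it, namely Mal-B1, Mal-B2 and tobi, and of 10 glycogen genes, 9 of them matched to the annotation, 2 are, AGBE and Gbs-76A. None of 4 trehalose genes, of 19 genes of glycolysis, gluconeogenesis and the pentose phosphate pathway, or of 16 genes of sugar sensing, insulin and AKH is among them. The 5 carbohydrate genes of the table all passed limma, as did 93.5% of its probe sets, 3 higher and 2 lower, where 69.2% of its probe sets are listed as higher. Their median log2 difference, over genes that went both ways, was 0.42, against 0.46 over the table and -0.0015 over all probe sets. The probe sets of the other listed genes were not identified by name, so nothing is said of their levels.

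Gbs-76A encodes a subunit that targets protein phosphatase to glycogen, where the phosphatase acts on the enzymes of glycogen synthesis and breakdown. It went from 657 ± 22.9 in Canton S to 478 ± 33.6 in those labelled DHR96 mutant (SD over 3 arrays each). The log2 difference was -0.45 (SE 0.0588, limma adjusted p = 0.00856). With the spike-in split as a block it was -0.34 (limma adjusted p = 0.188). With all arrays, the 2 glycogen genes of the table therefore moved in opposite directions, AGBE up and Gbs-76A down.

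By the ontology terms of the authors' table, 11 genes carried a term naming carbohydrate, glucosidase, starch, sucrose or glycogen, the 4 genes among them. Of the other 7, 5 fell and 2 rose. All come from a table of which 93.5% passed limma and 69.2% of probe sets are listed as higher. The 5 that fell are the lysosomal alpha-mannosidase genes, which cut mannose from glycoproteins: LManV, LManVI, LManIII, LManII and LManI, with log2 differences of -2.54, -2.10, -1.67, -0.87 and -0.39; LManI did not pass with the spike-in split as a block (-0.36, limma adjusted p = 0.200). The 2 that rose were Slc45-1, a sucrose transporter gene, from 1360 ± 142 to 1816 ± 137 (SD, n = 3 each; limma adjusted p = 0.0292), and Gba1a, a gene for a glucosidase of sphingolipid breakdown, from 777 ± 104 to 1056 ± 81.3 (SD, n = 3 each; limma adjusted p = 0.0380). Their log2 differences were 0.42 and 0.44. With the spike-in split as a block they were 0.29 for Slc45-1 and 0.43 for Gba1a, and did not pass (limma adjusted p = 0.417 and 0.396). Slc45-1 also did not pass without Canton S replicate 2 or 3 or mutant replicate 2 or 3 (limma adjusted p = 0.0770 to 0.0845), nor Gba1a without any array but Canton S replicate 2 (0.0659 to 0.138). Mal-B1, Mal-B2 and tobi were the 3 probe sets of the table with the term for alpha-glucosidase activity, and AGBE the 1 with the term for the branching enzyme.

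**Figure D4:**
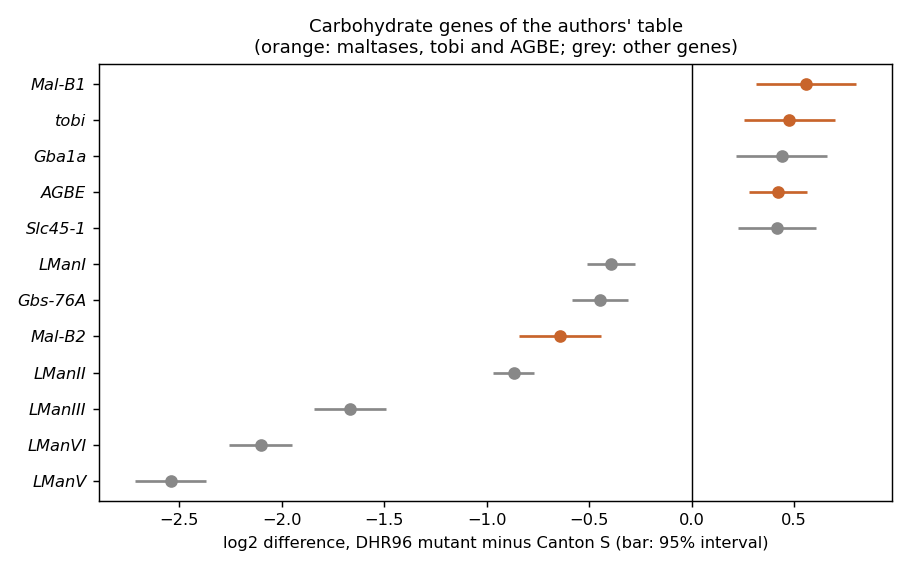
Log2 difference, DHR96 mutant minus Canton S, with its 95% interval from limma, for the 11 genes with a carbohydrate term and Gbs-76A. The 4 genes described lie between -0.64 for Mal-B2 and 0.56 for Mal-B1, and the lysosomal alpha-mannosidase genes reach -2.54.

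The arrays in each gene's profile were compared with those of 247 other genes of the table, by Pearson's r of log2(intensity + 16) over the 6 arrays. The 6 points share 1 difference between the groups, so any gene of the table with a clean difference has a high r, and the values are a description. For Mal-B1 the nearest were the cuticle protein gene Cpr50Cb (r = 0.991), CG9119 (r = 0.991) and Sclp (r = 0.988). Cpr50Cb, like Mal-B1, was highest on mutant replicate 3, reading 376, 359 and 324 in Canton S and 474, 557 and 685 in the arrays labelled mutant. For Mal-B2 they were the cytochrome P450 genes Cyp6g1, known for insecticide resistance (r = 0.993), and Cyp6t1 (r = 0.991), with CG4716 (r = 0.987). Cyp6g1 read 7672, 8164 and 8040 in Canton S and 5997, 4773 and 5099 in the arrays labelled mutant, with the lowest value on replicate 2, as for Mal-B2.

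The profile of tobi was matched less closely than those of the other 3 genes, by CG10011 (r = 0.955), CG31867 (r = 0.943) and CG14752 (r = 0.942). CG10011 read 323, 291 and 294 in Canton S and 470, 426 and 437 in the arrays labelled mutant, again highest on replicate 1. For AGBE the nearest were a histone H1 gene, His1:CG31617 (r = 0.996), the chitinase gene Cht7 (r = 0.994) and reb (r = 0.994). Histone H1 genes are near-identical copies, so the probe set of His1:CG31617 may read more than 1 of them. Only the 3 nearest were kept for each of the 4 genes, and no gene was among them for more than 1. The 4 genes were not compared as matches of each other there. Between themselves, over the 6 arrays, r was 0.962 for Mal-B1 and AGBE, 0.860 for tobi and AGBE and 0.800 for Mal-B1 and tobi. Mal-B2, which fell, had r of -0.891 to -0.736 with the other genes.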

How the data were processed

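Biotin-labelled cRNA, for which 6 ug of total RNA was used per the labels' protocols, was read on Affymetrix arrays. The authors' deposited values are linear intensities of probe sets. MAS5 is the tool named in the submitters' processing notes, without a version or a role. Array quantiles nearly coincide and the lowest value of each array is 97.2 to 103.4, so how background was corrected and probes were summarised is not settled, and changes of dim probe sets may be understated. Per the file headers, the authors' deposited table holds a SAM score with its log2 numerator and its denominator, a fold with a sign and a q-value given in percent. That numerator equals the mean log2 difference, DHR96 mutant minus Canton S, within 5.68e-10, which settles its direction.

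Of the 18952 probe sets, the 183 controls of the manufacturer were left out and 18769 tested with limma 3.58.1 (R 4.3.3): log2(intensity + 16), the group as the only term, eBayes with an intensity trend, two-sided, Benjamini-Hochberg over all 18769, threshold 0.05. On simulated data for this comparison it recovered 78%, 82%, 94% and 100% of probe sets changed 1.3-fold, 1.5-fold, 2-fold and 4-fold. Of 184 calls 7 were false. The simulation changed 200 probe sets and drew independent noise for each probe set. It held no effect shared by an array, such as the spike-in split, so its recovery need not hold for these arrays. Exact permutation tests used SciPy 1.17.1. The number of arrays limits the precision.

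The genes and lists were chosen with earlier results of these data known. Named were the 4 genes, Hr96, genes of the carbohydrate, fat body and midgut lists or with a carbohydrate term in the authors' table, and the 3 nearest profiles per gene. A gene with several probe sets was represented by the brightest, and 3 probe sets that name several genes stayed unnamed. Alternatives were another scaling or pseudocount, dim probe sets left out, variances without the trend or robust, blocks for the replicate number and for the split by poly-A controls, and each array left out. Leaving out both arrays that the spike-in controls set apart was added after seeing the data.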

Additional observations from a re-analysis of the deposited data

How the results depend on the processing

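The direction of each of the 4 genes held under all 16 alternatives. Quantile normalization, median centring, a pseudocount of 0 or 64, leaving out the dimmest 0.25 of probe sets and robust variances left all 4 genes past limma's threshold; so did a fit with no intensity trend, although 813 probe sets then passed in place of 1306. With single arrays left out, 1 to 3 of the 4 genes, 2 to 4 of the 5 carbohydrate genes and 287 to 803 of all probe sets passed. The log2 differences then ranged from 0.46 to 0.64 for Mal-B1, -0.73 to -0.56 for Mal-B2, 0.39 to 0.55 for tobi and 0.37 to 0.47 for AGBE. With the poly-A control split as a block, 0 of the 4 genes, 0 of the 5 carbohydrate genes and 31 of all probe sets passed limma, with log2 differences of 0.395 for Mal-B1, -0.46 for Mal-B2, 0.66 for tobi and 0.37 for AGBE and all 4 at an unadjusted p under 0.05. Leaving out both arrays set apart gave the same differences, again 0 of 4 and 0 of 5 genes, and 62 of all probe sets. The differences of both fits rest on 1 array labelled mutant, which without both arrays is assumed to vary like Canton S, and the arrays set apart are all labelled mutant, so their setting apart and the mutant label cannot be told apart on them. With the replicate block, 1 of the 4 genes, 2 of the 5 carbohydrate genes and 240 of all probe sets passed; tobi passed, and the differences of 0.56 for Mal-B1, -0.64 for Mal-B2 and 0.42 for AGBE had limma adjusted p-values of 0.0938, 0.0560 and 0.0643. Slc45-1 did not pass with the replicate block (limma adjusted p = 0.0998), nor Gba1a without the intensity trend (0.0516). Of the 6 fat body markers in the authors' table, 5 of which passed, 2 passed with robust variances, 3 with the replicate block and 2 to 6 with an array left out, and of the 8 midgut markers 6, 6 and 5 to 8. The labels do not say whether same-numbered arrays were handled together. The correlations of their deviations from the group means were 0.19, -0.22 and -0.24, and only replicate 1 correlated best with its own number. Deviations from a mean of 3 arrays are tied to each other, so these values cannot decide whether the arrays were paired.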
